A study of Mus musculus with 22 samples.

Results

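The tricarboxylic acid (TCA) cycle, the enzymes that let pyruvate into it and the malate-aspartate shuttle were followed in hearts that had lost Ronin, the transcription regulator encoded by Thap11. The group holds 36 genes, taken by name from the pathway and not by their values, and 33 of them had a probe on the array, out of 19057 genes with a probe in all. Mpc1 and Mpc2, the mitochondrial pyruvate carrier, and Got1, the cytosolic aspartate aminotransferase, matched no probe and were not analysed here. Of the 33, 32 were bright enough to be tested in at least 1 comparison.

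Knockout hearts (Nkx2.5::Cre with both Ronin alleles floxed) and control hearts (Nkx2.5::Cre with 1 floxed allele) were compared at E9.5, with 2 arrays each and 10 hearts pooled per array, and at E11.5, with 3 arrays each. Knockout hearts made with αMHC::Cre (MHC::Cre in the labels) and their controls, which again carried Cre and 1 floxed allele, were compared at E11.5, at birth (P0) and at 6 weeks, with 2 arrays each. All mice were C57BL/6, and total RNA of the heart was hybridised to Illumina MouseWG-6 v2.0 arrays, 22 in all. The genotype field of the αMHC knockouts names Nkx2.5::Cre, so for them the driver was taken from the titles and from the methods of the study. Nkx2.5::Cre is active in cardiac progenitors and αMHC::Cre, somewhat later, in heart muscle cells, so cells outside these lineages keep Ronin, and in whole-heart RNA fewer cells of a type and less RNA per cell cannot be told apart. Nothing in the labels says which animals or litters the arrays came from, so p-values measure the spread between these arrays.

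The TCA cycle burns acetyl groups from pyruvate and fatty acids in the mitochondrial matrix and hands the electrons to the respiratory chain. Pyruvate enters through the pyruvate dehydrogenase complex, which kinases (Pdk) switch off and phosphatases (Pdp) switch on, and other enzymes refill the cycle with its intermediates. The inner membrane is closed to NADH, and the malate-aspartate shuttle carries the electrons of cytosolic NADH across it as malate. The embryonic heart runs largely on glucose and lactate, and after birth heart muscle turns to fatty acids and to a denser mitochondrial network.

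Values are deposited intensities, and fold changes are limma estimates on the log2 scale, knockout minus control, with the standard error (SE) and a Benjamini-Hochberg adjusted p over all genes tested in that comparison, called below 0.05. Thap11 was lower in each of the 11 knockout arrays than in every control array of its comparison, at 53.8% to 86.4% of the control mean in Nkx2.5 knockouts at E9.5, 50.9% to 72.5% at E11.5, 59.3% to 88.2% in αMHC knockouts at E11.5, 71.6% to 78.8% at P0 and 20.0% to 53.4% at 6 weeks (mean log2 difference −0.74). An exact permutation test that shuffled arrays inside each comparison gave a two-sided p of 7.716e-05, the lowest possible with 25920 assignments. A list of cardiomyocyte markers, 14 of 15 with a probe, had summed intensities of 231108 to 246007 in Nkx2.5 knockouts and 235974 to 254374 in their controls at E11.5, so heart muscle RNA was prominent in both. Xist is expressed from the inactive X chromosome of females. It was at 49.9 and 54.9 in αMHC knockouts at E11.5, against 1888 and 1989 in their controls. In that comparison sex and genotype cannot be told apart. Within groups of other comparisons Xist also varied, as in αMHC controls at P0 (1168 ± 1522, SD, n = 2).

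The main fit leaves out the replicate number that knockout and control arrays share. In it, 2 genes of the group passed the test across the 5 comparisons, once each, and both were lower in knockouts. They were Mdh1, the cytosolic malate dehydrogenase of the shuttle, in Nkx2.5 knockouts at E11.5, and Gpt2, a mitochondrial alanine aminotransferase that makes α-ketoglutarate from glutamate and pyruvate, in αMHC knockouts at 6 weeks. Of the enzymes of the cycle itself, 0 passed the test in any comparison in the fit without a replicate block, and Mdh2 did in Nkx2.5 hearts at E11.5 with it. In those hearts the shared number was taken as pairing, which the main fit ignores.

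**Figure D1:**
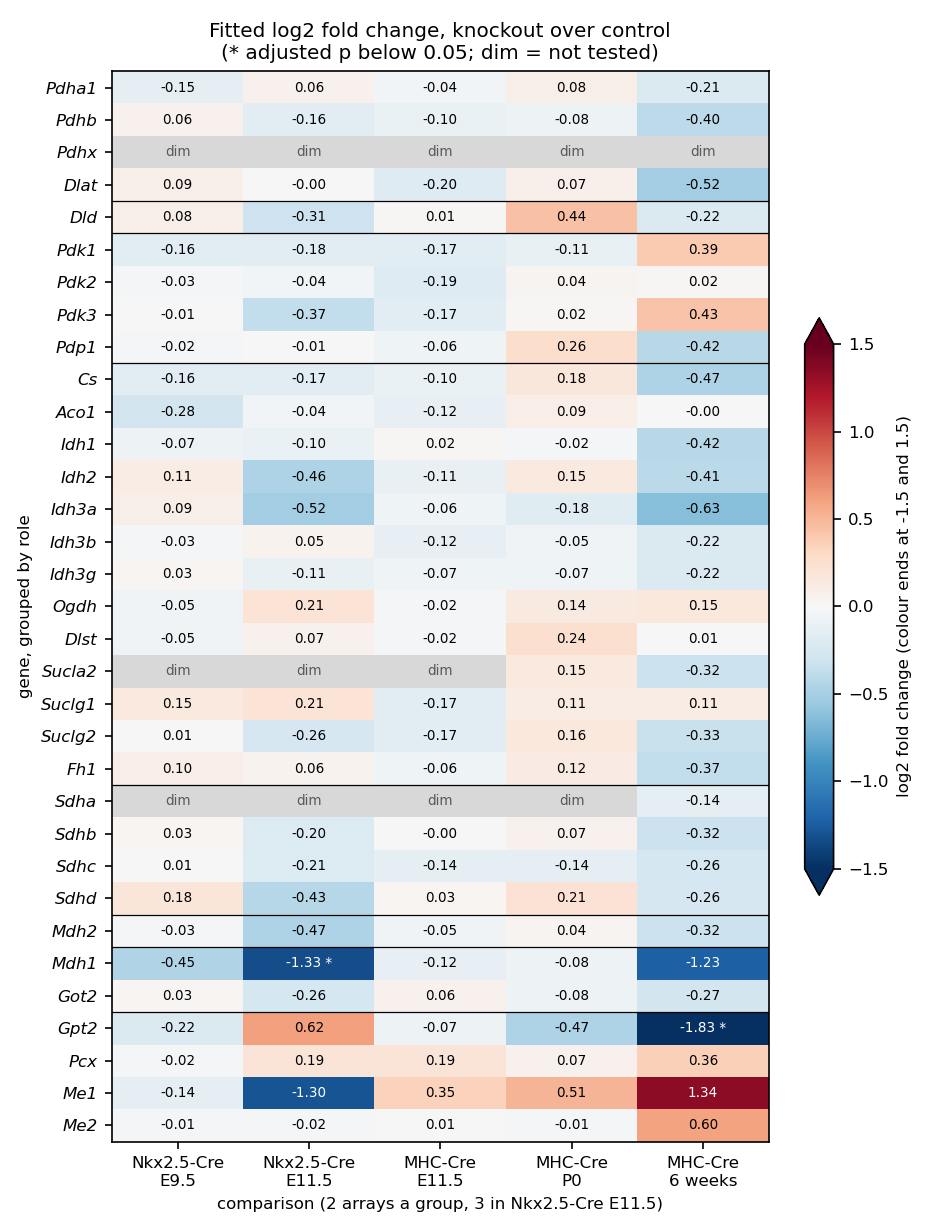
Fitted log2 fold change, knockout over control, of the 33 genes with a probe (rows, grouped by role, lines between roles) in the 5 comparisons (columns). Blue is lower and red is higher in knockouts, and grey marks genes too dim to be tested. An asterisk marks an adjusted p below 0.05 in the fit without the replicate block. Mdh1 at E11.5 under Nkx2.5::Cre (−1.33) and Gpt2 at 6 weeks under αMHC::Cre (−1.83) carry the only asterisks.

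In Nkx2.5 knockouts at E11.5, Mdh1 fell to 571, 427 and 500 in the knockout arrays, against 1330, 1078 and 1363 in the control arrays. All 3 knockout arrays lay below all 3 control arrays. The means were 499 ± 71.7 in knockouts and 1257 ± 156 in controls (SD, n = 3 each), a log2 fold change of −1.33 (SE 0.23, limma adjusted p = 0.00708). Mdh1 was the 1 gene of 30 tested that was called lower, against 0.38% of all 11827 genes, and 0 of 30 were called higher, against 0.11% of all genes. Among genes that were higher, 1 had an unadjusted limma p below 0.05 (Suclg1), and it was not called. The methods' t-test gave 2 genes in that direction before and 0 after Benjamini-Hochberg adjustment. Mdh1 has a further pair of dimmer probes, which gave log2 differences of −0.59 and −0.54 in the same hearts, so the direction was shared and the size was not, and with the mean of its probes the adjusted p was 0.296. It was also above 0.05 without control 1 (adjusted p = 0.0634) or control 3 (0.0712).

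Same-numbered knockout and control arrays of this comparison deviated together, and a fit with that number as a block gave Mdh1 an adjusted p of 1.92e-04. Mdh2 was then also called (adjusted p = 0.0185), and the genes called on the whole array numbered 489 in place of 58. Mdh2, the mitochondrial malate dehydrogenase that closes the cycle and takes the malate of the shuttle, was at 3425, 2725 and 3233 in knockouts, against 4614, 4241 and 4057 in controls. Its groups did not overlap, and the fold change was −0.47 (SE 0.16, adjusted p = 0.320 without the block).

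The promoter of Mdh1 is shown because it is the 1 promoter of the group that holds the letters ACTACA and TCCC with any 2 bases between them, a pattern known from promoters bound by Ronin and the zinc finger protein Zfp143, and that of Gpt2 because it is the 1 that matches the Ronin binding motif of the study. Windows of 250 bases before to 50 bases after the start (RefSeq, GRCm38.p6, both strands searched) were at hand for 32 of the 36 genes. The first pattern is in 1.81% and the study's motif in 2.27% of all 32851 windows. Capitals mark the match, which in Mdh1 (chr11:21571933-21572034, minus strand) reads on the opposite strand and runs over the start, from base −10 to base 2, and in Gpt2 (chr8:85492420-85492522, plus strand) lies at −66 to −54.
Mdh1: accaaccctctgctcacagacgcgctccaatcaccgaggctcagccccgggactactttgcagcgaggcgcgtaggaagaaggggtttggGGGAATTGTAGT
Gpt2: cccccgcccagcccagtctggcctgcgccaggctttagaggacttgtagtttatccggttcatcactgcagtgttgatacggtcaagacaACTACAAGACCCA
A match is a run of letters and not a measured binding site.

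Mdh1 was lower in the knockout arrays than in every control array in 4 of the 5 comparisons, as were 13.8% of all genes at E9.5 and 8.57% at E11.5 under Nkx2.5::Cre, and 17.8% at E11.5 and 17.9% at 6 weeks under αMHC::Cre. At E9.5 under Nkx2.5::Cre it was at 388 and 476 in knockouts, against 538 and 642 in controls (log2 fold change −0.45, SE 0.18, adjusted p = 0.783). In αMHC knockouts at E11.5 it was at 1234 and 1094, against 1279 and 1255 in controls (−0.12, SE 0.17, adjusted p = 1.00). At P0 the groups overlapped, with 6402 and 7317 in knockouts and 7027 and 7404 in controls (−0.08, SE 0.25, adjusted p = 1.00). At 6 weeks the αMHC knockouts were at 1366 and 3675, against 4749 and 5805 in controls. The change at 6 weeks, −1.23 (SE 0.33), was close in size to that at E11.5 under Nkx2.5::Cre. It just missed the threshold (limma adjusted p = 0.0652). With the replicate block the limma adjusted p at 6 weeks was 0.00488, but pairing was not established there. There the dimmer probes gave log2 differences of −0.99 and −0.70.

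Whether the drivers differed at E11.5 was tested as a difference of fold changes. For Mdh1 it was 1.21 (αMHC minus Nkx2.5, SE 0.29), with a limma adjusted p of 0.221, or 0.0223 in the blocked fit. The blocked fit also pairs the αMHC arrays, where same-numbered arrays correlated at 0.024 and pairing was not established. It leaves 6 residual degrees of freedom in place of 12, and the share of all genes it called for this difference is not given here. Of the 30 genes tested for the difference between drivers, 0 were called in the fit without the block. Of all genes, 0.0351% were called with a higher and 0.0439% with a lower fold change in αMHC knockouts. An unadjusted p below 0.05 was found for 4 of the 30. Between E11.5 and E9.5 under Nkx2.5::Cre the fold change of Mdh1 differed by −0.88 (SE 0.29, adjusted p = 0.960). There 0 of 30 genes were called, against 0.00901% of all genes in each direction, and 6 had an unadjusted p below 0.05. For both differences the share of all genes with an unadjusted p below 0.05 was not counted.

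**Figure D2:**
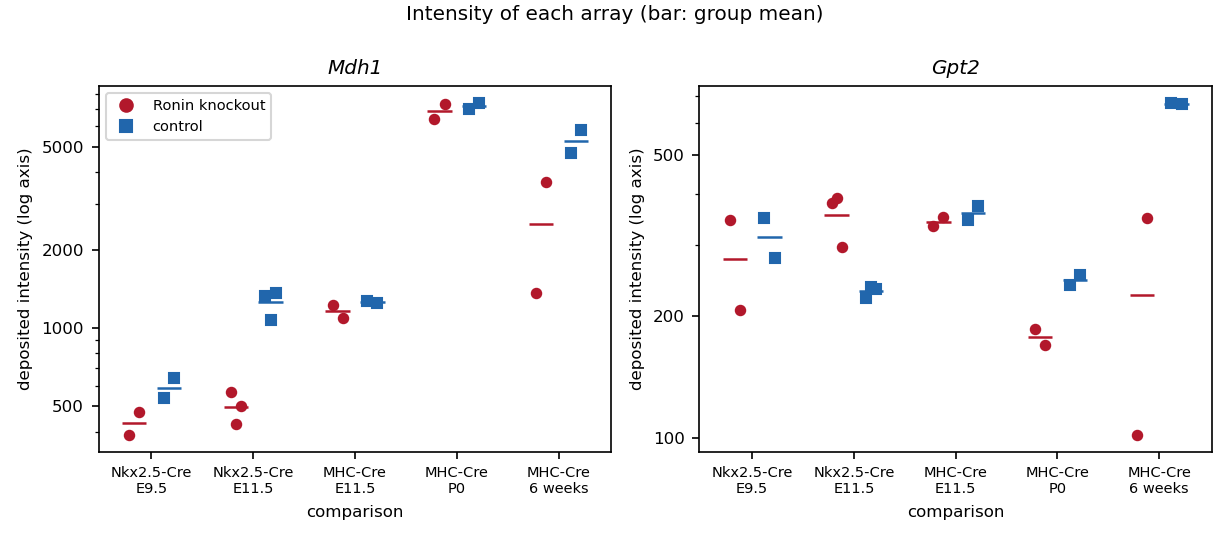
Deposited intensity (log axis) of Mdh1 and Gpt2 in each array, Ronin knockouts (circles) left of controls (squares) in each of the 5 comparisons, with a bar at the group mean. Mdh1 knockout arrays lie between 427 and 571 in Nkx2.5 hearts at E11.5, below controls at 1078 to 1363, and Gpt2 knockout arrays at 102 and 350 in αMHC hearts at 6 weeks, below controls at 666 and 673.

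In the same Nkx2.5 knockouts at E11.5, the rest of the group showed differences in both directions. Of 30 genes, Mdh1 included, 22 had a fold change below 0, against 53.9% of all genes tested, with a median of −0.14 against −0.02 over all genes. An unadjusted p below 0.05 was found for 7 that were lower, against 5.11% of all genes, and for 1 that was higher, against 3.39%. The groups did not overlap for 6 genes that were lower and 2 that were higher, against 8.57% and 4.14% of all genes. Idh3a, the catalytic subunit of the NAD-dependent isocitrate dehydrogenase, was at 2183, 1675 and 1297 in knockouts, against 2386, 2359 and 2464 in controls (−0.52, SE 0.20, adjusted p = 0.432). The groups did not overlap, and the knockout arrays were spread more widely than the control arrays. Idh2, the NADP-dependent mitochondrial form, had a fold change of −0.46 (adjusted p = 0.480), whereas Idh3b and Idh3g, the regulatory subunits that work with Idh3a, were at 0.05 and −0.11. Of the 12 enzymes of the cycle proper (without Mdh2, Dld and succinate dehydrogenase) 7 were below 0, close to the share of all genes, and Suclg1 (0.21, adjusted p = 0.545), Ogdh (0.21), Dlst (0.07) and Fh1 (0.06) were above it. The 3 tested subunits of succinate dehydrogenase, which links the cycle to the respiratory chain as its complex II, ranged from −0.43 (Sdhd) to −0.20 (Sdhb), and Got2, the mitochondrial aspartate aminotransferase of the shuttle, was at −0.26. The pyruvate dehydrogenase subunits Pdha1, Pdhb and Dlat lay between −0.16 and 0.06, and Pdk1, Pdk2, Pdk3 and Pdp1 between −0.37 and −0.01. Dld, the dihydrolipoamide dehydrogenase shared by the pyruvate and α-ketoglutarate complexes, was at −0.31. With the replicate block the limma adjusted p was 0.0643 for Idh3a, 0.113 for Idh2 and 0.189 for Suclg1.

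The genes that refill the cycle went in different directions in these hearts. Me1, the cytosolic malic enzyme, was at 114, 50.6 and 169 in knockouts, against 224, 247 and 261 in controls (−1.30, SE 0.52, adjusted p = 0.468). The groups did not overlap, but the lowest knockout array was under the median of all probes (58.3). Gpt2 was at 381, 392 and 296 in knockouts, against 222, 237 and 233 in controls, again without overlap, and its fold change of 0.62 (SE 0.30, adjusted p = 0.593) had the opposite sign to that at 6 weeks. With the replicate block the limma adjusted p was 0.0655 for Me1 and 0.135 for Gpt2. Pcx, pyruvate carboxylase, and Me2, the mitochondrial malic enzyme, were at 0.19 and −0.02.

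The 3 knockout arrays were not alike. Relative to the control mean, the median of the 30 genes was −0.08, −0.30 and 0.05 (log2) in knockouts 1, 2 and 3, whose Thap11 was at 66.1%, 72.5% and 50.9% of the control mean. The array with the least Thap11 had the highest median, and a relation between them was not tested. Controls 1, 2 and 3, taken as paired with these by number, had medians of 0.03, −0.07 and 0.11, in the same order. Summed skeletal muscle markers, 7 of 8 with a probe, were at 1849 to 2148 in knockouts and 2294 to 2940 in controls, and summed liver markers, 7 of 7, at 405 to 411 in knockouts and 461 to 483 in controls. Knockouts and controls did not overlap in either sum, 0 genes of these lists were called, and their part in the result was not tested. Sums of the other marker lists overlapped between the groups, but the brightest probes weigh most in a sum. Gene by gene, 8 of 9 erythroid markers were above 0 (median 0.41), 4 of them with an unadjusted p below 0.05, as were 7 of 8 fibroblast markers (median 0.31), with 1 unadjusted. Cardiomyocyte markers were below 0 in 11 of 14 (median −0.12, against −0.14 for the 30 genes). The part of these markers in the results was not tested.

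At E9.5 Nkx2.5 knockouts and controls differed little in these genes. Of 30 genes, limma called 0 lower and 0 higher, against 0.316% and 0.179% of all 11713 genes, 1 had an unadjusted p below 0.05 (Mdh1, lower, against 2.58% of all genes lower and 2.17% higher), and the methods' t-test gave 0 before and after adjustment. The median was −0.02, with 17 below 0, against 47.8% of all genes, and the groups did not overlap for 5 that were lower and 1 that was higher, against 13.8% and 15.9%. After Mdh1, the lowest p belonged to Suclg1, the shared subunit of succinyl-CoA ligase, at 11410 and 12647 in knockouts, against 11013 and 10618 in controls (0.15, SE 0.07, adjusted p = 0.999), and to Aco1, the cytosolic aconitase that doubles as an iron sensor, at 182 and 192 in knockouts, against 238 and 216 in controls (−0.28, SE 0.14, adjusted p = 0.999). Gpt2 overlapped, with 346 and 207 in knockouts and 348 and 278 in controls. All 30 fold changes lay between −0.45 and 0.18. Summed erythroid markers, 10 of 12 with a probe, were at 185806 to 186016 in knockouts and 186835 to 188903 in controls. Adipocyte markers, of which 1 was bright enough to be tested, were at 359 to 367 in knockouts and 357 to 358 in controls. Gene by gene, 11 of 14 cardiomyocyte markers were below 0 and 3 above (median −0.07). Among them Ttn (−0.50) and Myh6 (−0.33) had an unadjusted limma p below 0.05. All 5 liver markers tested were below 0 (median −0.39). The part of these markers was not tested.

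αMHC knockouts at E11.5 showed a similar picture. Limma called 0 of 30 genes in either direction, against 0.0084% of all 11910 genes lower and 0% higher. Suclg1 alone had an unadjusted p below 0.05, against 2.27% of all genes lower and 2.12% higher, at 15110 and 16091 in knockouts, against 17828 and 17247 in controls (−0.17, SE 0.07, adjusted p = 1.00), and the methods' t-test gave 1 gene before adjustment (Suclg2, lower) and 0 after it. The median was −0.06, with 23 of 30 below 0 against 52.4% of all genes, and 8 were lower and 1 higher without overlap, against 17.8% and 14.7% of all genes. Pcx was at 134 and 130 in knockouts and 112 and 119 in controls (0.19, adjusted p = 1.00), and Pdk2 at 118 and 109 in knockouts and 138 and 122 in controls (−0.19, adjusted p = 1.00). The range was −0.20 to 0.35. Several marker sums differed here without overlap, though 0 of their genes were called. Fibroblast markers, 9 of 9 with a probe, were at 14035 to 14636 in knockouts and 16672 to 17053 in controls, and endothelial markers, 8 of 8, at 17842 to 18581 in knockouts and 20061 to 20262 in controls. Liver and adipocyte markers were lower too, at 605 to 620 and 437 to 444 in knockouts, against 675 to 716 and 450 to 470 in controls. Erythroid and smooth muscle markers were higher, at 274330 to 296519 and 53193 to 53307 in knockouts, against 253265 to 256267 and 50007 to 51509 in controls. The part of these markers and of the Xist difference was not tested.

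At P0, αMHC knockouts and controls again gave 0 limma calls among 31 genes, against 0% of all 11779 genes in either direction, with 0 unadjusted p below 0.05, against 2.03% of all genes lower and 2.18% higher. The methods' t-test gave Suclg1, higher, and Gpt2, lower, before adjustment and 0 after it. The median was 0.07, with 11 of 31 below 0 against 50.9% of all genes, and 4 were lower and 4 higher without overlap, against 15.7% and 14.6%. Fibroblast markers summed to 36490 to 39693 in knockouts and 33831 to 34148 in controls, and their part was not tested. Gpt2 was at 186 and 169 in knockouts, against 239 and 253 in controls, without overlap (−0.47, SE 0.32, adjusted p = 1.00). Dld was at 1725 and 3974 in knockouts and 1747 and 2132 in controls (0.44, SE 0.31, adjusted p = 1.00), a mean raised by 1 knockout array. Pdp1, the phosphatase that switches pyruvate dehydrogenase on, was at 875 and 1027 in knockouts, against 800 and 784 in controls (0.26, SE 0.19, adjusted p = 1.00). No P0 effect differed from that at E11.5 by limma (0 of 30 called, against 0% of all genes). Unadjusted, 1 of 30 was below 0.05, and the share of all genes below it was not counted.

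At 6 weeks Gpt2 was at 102 and 350 in αMHC knockouts, against 673 and 666 in controls. The control arrays were within 10 units of each other, and both knockout arrays were well below them. The means were 226 ± 175 in knockouts and 669 ± 4.87 in controls (SD, n = 2 each), a log2 fold change of −1.83 (SE 0.42, limma adjusted p = 0.0290). It was the 1 gene of 32 called lower, against 1.05% of all 11708 genes, and 0 were called higher, against 0.717%. Unadjusted, 4 genes that were lower and 1 that was higher (Me2) were below 0.05, against 5.06% and 5.52% of all genes. The methods' t-test gave Me2, higher, and Cs, lower, before adjustment and 0 genes after it, so that Gpt2 was not called by it in either form. The call of Gpt2 was lost without knockout 1 (−0.94, adjusted p = 0.565), without control 1 (0.436) or control 2 (0.189), with this comparison fitted alone (0.423), and by the methods' t-test. The gene has a single probe.

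Compared with other ages under αMHC::Cre, the fold change of Gpt2 at 6 weeks differed by −1.75 from that at E11.5 (SE 0.48, adjusted p = 0.121) and by −1.36 from that at P0 (SE 0.53, adjusted p = 0.480). The differences of Mdh1 were −1.10 (SE 0.37, adjusted p = 0.260) and −1.15 (SE 0.41, adjusted p = 0.431). For 6 weeks against E11.5, 0 of 30 genes were called, against 0.317% of all genes called higher and 0.438% lower. An unadjusted p below 0.05 was found for 3 of the 30. For 6 weeks against P0, 0 of 31 were called, against 0.1% of all genes called higher and 0.155% lower, and 5 were below 0.05 unadjusted. For these differences too, the share of all genes below 0.05 unadjusted was not counted.

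At 6 weeks 10 of 13 enzymes of the cycle proper and all 3 tested pyruvate dehydrogenase subunits had fold changes below 0, as did 1 of 4 of its kinases and phosphatases. Of the 32 genes, 23 had a fold change below 0, against 47% of all genes, with a median of −0.26 against 0.02, and 12 were lower and 4 higher without overlap, against 17.9% and 19.6% of all genes. Cs, the citrate synthase that starts the cycle, was at 9622 and 10519 in knockouts, against 14768 and 13101 in controls (−0.47, SE 0.22, adjusted p = 0.478). Idh3a was at 3502 and 5135 in knockouts, against 6655 and 6511 in controls (−0.63, SE 0.28, adjusted p = 0.417). Dlat, the acetyltransferase core of pyruvate dehydrogenase, was at 1532 and 2574 in knockouts, against 2707 and 2993 in controls (−0.52, adjusted p = 0.451), and Pdhb and Pdha1 were at −0.40 and −0.21. The 4 subunits of succinate dehydrogenase lay between −0.32 and −0.14, and the arrays of Sdha, at 68.0 and 96.1 in knockouts and 80.8 and 98.8 in controls, lay around the median of all probes (77.8). Fh1, fumarase, was at −0.37, Mdh2 at −0.32 and Got2 at −0.27, whereas Ogdh and Dlst, the α-ketoglutarate dehydrogenase subunits, were at 0.15 and 0.01, and Suclg1 at 0.11.

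A few genes of the group had fold changes above 0 at 6 weeks, and none passed the test. Me2 was at 230 and 201 in knockouts, against 140 and 144 in controls, without overlap (0.60, SE 0.22, adjusted p = 0.252). Pdk1 was at 1520 and 1059 in knockouts and 1057 and 881 in controls (0.39, adjusted p = 0.709), and Pdk3 overlapped, at 275 and 179 in knockouts and 149 and 182 in controls (0.43, adjusted p = 0.729). Me1 was at 445 and 554 in knockouts, against 70.4 and 545 in controls, which overlapped through control 2 (1.34, SE 0.74, adjusted p = 0.594). Pdk2 was at 0.02 and Pdp1 at −0.42.

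Most of the downward shift at 6 weeks sat in 1 array. Relative to the control mean, the median of the 32 genes was −0.45 in knockout 1 and −0.08 in knockout 2, with 24 and 18 genes below 0, against control arrays at −0.04 and 0.04. Mdh1 was at −1.94 and −0.51, Gpt2 at −2.72 and −0.94, Dlat at −0.89 and −0.15, Pdhb at −0.84 and 0.05, and Sdhd at −0.79 and 0.28 in knockouts 1 and 2. Other genes were more alike in both, such as Cs at −0.53 and −0.40, Pdp1 at −0.46 and −0.37, and Aco1 at −0.03 and 0.02. Thap11 was at 20.0% of the control mean in knockout 1 and 53.4% in knockout 2. Xist was at 374 ± 446 in knockouts and 307 ± 352 in controls at 6 weeks (SD, n = 2 each). It thus differed widely between arrays of the same group, and the part of sex was not tested. Without knockout 2 the genes called lower were Gpt2, Mdh1, Dlat and Mdh2 (limma adjusted p from 9.06e-05 to 0.0362), and without knockout 1 there were 0. The number of all genes called changed alongside, to 751 (6.41% of those tested) without knockout 2 and 66 (0.564%) without knockout 1, against 207 with all arrays. It was 9 (0.0769%) without control 1 and 139 (1.19%) without control 2, with 0 genes of the group called.

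**Figure D3:**
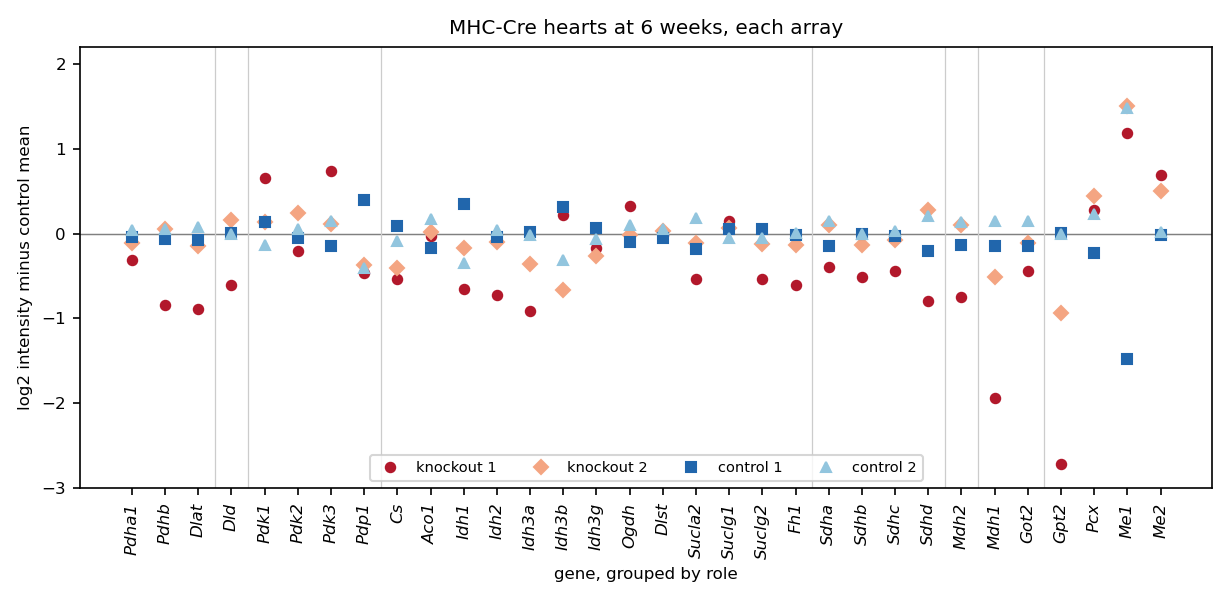
Log2 intensity minus the control mean in each of the 4 arrays of αMHC::Cre hearts at 6 weeks, for the 32 genes tested (grouped by role, vertical lines between roles). Knockout 1 (dark red circles) lies below 0 for 24 genes and knockout 2 (light diamonds) for 18, and the controls (blue) lie close to 0 except for Me1, Idh1, Idh3b and Pdp1.

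Other cell markers differed at 6 weeks as well. Of the smooth muscle markers, all 5 with a probe, 1 of 4 tested was called higher (Acta2, the smooth muscle actin that immature heart muscle also makes, at 58946 and 35637 in knockouts, against 13548 and 16365 in controls), and their sum was 37984 to 61898 in knockouts and 17898 to 19025 in controls. Cardiomyocyte markers summed to 344330 to 371643 in knockouts and 331802 to 336132 in controls, adipocyte markers (7 of 8 with a probe) to 2620 to 4542 in knockouts and 1961 to 2590 in controls, and liver markers to 638 to 712 in knockouts and 596 to 621 in controls, with 0 of these 3 lists' genes called. The adipocyte sum was mostly Cidea (mean 3178 in knockouts and 1831 in controls), while Adipoq was lower without overlap (74.3 and 110). Of 3 adipocyte markers tested, 2 were above 0 and 1 below. In the liver list Ttr was higher (202 and 105), and of 3 markers tested 1 was above 0 and 2 below. Gene by gene, 8 of 8 fibroblast markers were above 0 (median 0.26) and 4 of 5 skeletal muscle markers below 0 (median −0.62), 2 of these with an unadjusted p below 0.05. The cardiomyocyte sum was higher in knockouts without overlap, but gene by gene 8 of 14 cardiomyocyte markers were above 0 and 6 below (median 0.03). The part of all these markers in the results was not tested.

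Genes that border on the group gave few calls. A list of 28 further genes with a probe, holding carriers, assembly factors, lipoate synthesis and neighbouring enzymes, had 0 calls in 4 comparisons. At 6 weeks 1 of 23 tested was called lower and 0 higher. The gene is Pdp2, another pyruvate dehydrogenase phosphatase, at 777 and 1647 in knockouts, against 2445 and 2336 in controls (−1.08, SE 0.24, limma adjusted p = 0.0223). Gpt, the cytosolic alanine aminotransferase, was at 229 and 552 in knockouts, against 842 and 824 in controls, without overlap (−1.23, SE 0.32, adjusted p = 0.0572). Transcription regulators of mitochondrial genes, 12 with a probe, had 0 calls in all 5 comparisons.

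Fatty acid genes and respiratory subunits had fold changes below 0 throughout at 6 weeks. All 23 fatty acid genes and all 42 respiratory subunits tested had a fold change below 0, with medians of −0.45 and −0.22, against 23 of 32 and −0.26 for the cycle group. Of the fatty acid genes 2 were called lower (Etfdh, which passes electrons of fatty acid oxidation to the chain, at −1.75 and Acaa2, a thiolase of β-oxidation, at −1.62), and of the respiratory subunits 1 (Uqcr10 of complex III, at −1.24). Uqcr10 passed the test in Nkx2.5 hearts as well, at −0.72 at E9.5 and −1.32 at E11.5, where 0 and 1 genes of the cycle group were called. Of the fatty acid genes Acadvl, an acyl-CoA dehydrogenase for long chains, was called higher in Nkx2.5 hearts at E9.5 (0.68, limma adjusted p = 0.0195). Glycolytic genes were mostly above 0 at 6 weeks, with 4 of 14 below 0, a median of 0.33 and 0 calls. These counts share the same arrays, and no difference between the lists was tested.

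Levels in the control hearts give the course of the group with age, as a description. All arrays were quantile normalized together for it, since the authors had normalized each comparison apart, and age and that step cannot be told apart. The pair of control groups at E11.5 served as a gauge, and they differed by a median of 0.17 and at most 0.83 (log2), with 17 of 33 signs turned by scaling arrays to 1 median. From E11.5 to P0 under αMHC::Cre, 26 of 33 genes were higher at P0, with a median of 0.76 against −0.06 over all genes. Of the 33, 12 were higher by more than 2-fold, against 6.52% of all genes. From P0 to 6 weeks 26 were higher, with a median of 0.42 against 9.04e-04 over all genes. Of the 33, 4 were higher by more than 2-fold, against 6.89% of all genes. With arrays scaled to 1 median, none of the 33 changed sign in the first step and 2 in the second (Idh2 and Idh3a), whereas 12 did between E9.5 and E11.5 under Nkx2.5::Cre, for which no direction is given. On the values as deposited, whose array medians differ by 0.65 for the first step and −0.48 for the second, 29 of 33 genes were higher at P0 than at E11.5, but 29 of 33 were lower at 6 weeks than at P0, so the direction of the second step turns with the scaling for most genes. Ogdh, Dlat, Pdk2 and Gpt2 were higher at 6 weeks under each scaling.

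The pyruvate dehydrogenase kinases each had a course of their own in αMHC controls. Pdk3 was at 1951 to 2134 at E11.5, 1684 to 1938 at P0 and 157 to 195 at 6 weeks, a step of −3.37 after birth. Pdk2, the most widely expressed of the kinases, was at 118 to 132, 461 to 466 and 1339 to 1426 at these ages, steps of 1.89 and 1.58. Pdk1, a hypoxia-responsive kinase, was at 1357 to 1493, 2249 to 2418 and 1035 to 1234.

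The genes called in knockouts had the following levels in controls. Mdh1 was at 534 to 631 at E9.5 and 1559 to 1974 at E11.5 in Nkx2.5 controls, and at 1022 to 1043 at E11.5, 4337 to 4543 at P0 and 4890 to 5946 at 6 weeks in αMHC controls, a last step of 0.28 that was 0.02 with arrays scaled to 1 median and −0.46 as deposited. Gpt2 was at 301 to 323 at E11.5, 151 to 160 at P0 and 774 to 784 at 6 weeks, lower at P0 and then higher by 2.32 at 6 weeks. Sdhd was higher by 2.43 at P0 and differed by −0.03 between P0 and 6 weeks, Ogdh was higher by 0.79 and then by 1.75, and Idh3b differed by −0.77 and then by −0.96.

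**Figure D4:**
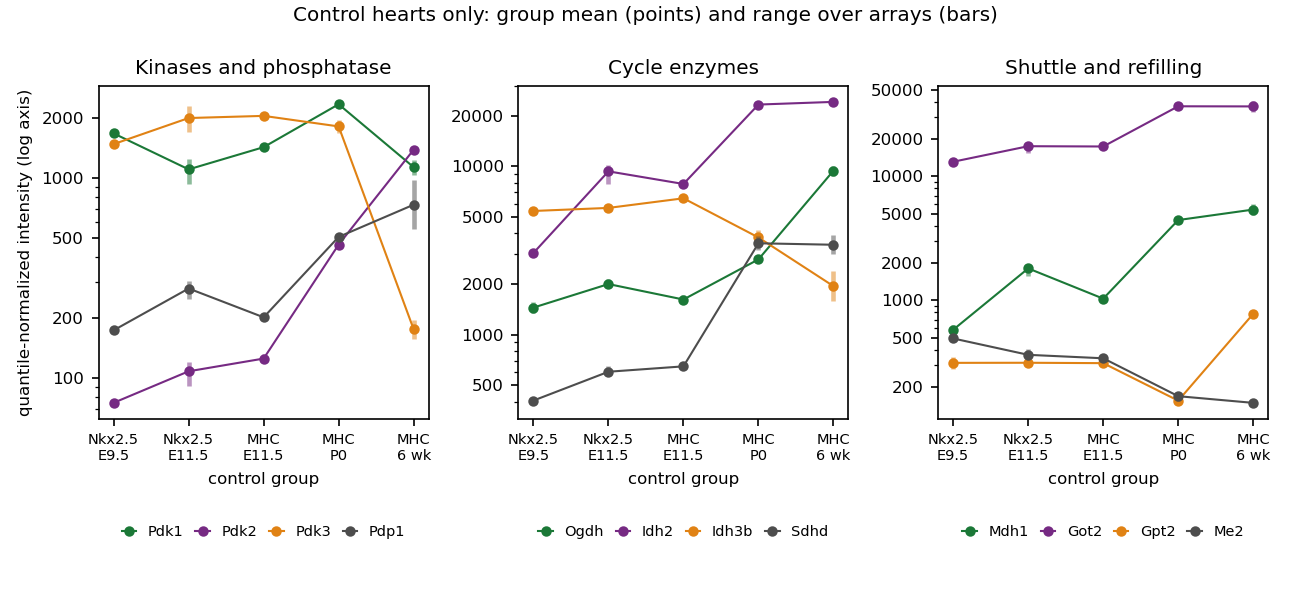
Intensity of 12 genes in control hearts only (log axis, after quantile normalization of all 22 arrays), with points at the group mean and bars over the range of arrays, in the order of age. Pdk3 drops to 175 at 6 weeks while Pdk2 climbs to 1382, and Gpt2 dips to 156 at P0 before it reaches 779 at 6 weeks, and heights of different genes are not comparable.

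The dimmest genes gave the least information. Pdhx, the anchor protein of pyruvate dehydrogenase, stayed at or below 77.6 on every array and was tested in 0 comparisons. Sdha, the flavoprotein of succinate dehydrogenase, was tested only at 6 weeks and Sucla2, the ATP-forming subunit of succinyl-CoA ligase, only at P0 and 6 weeks. Of the 33 genes, 18 had several probes, and Gpt2 was among the 15 with 1.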

How the data were processed

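The authors hybridised heart RNA to Illumina MouseWG-6 v2.0 arrays and deposited linear intensity values after cubic spline normalization in GenePattern. Quantiles are alike within each comparison and differ between comparisons. A table of non-normalized values, with 22 columns that match no sample label, was not used. Intensities were taken to log2. Of 45281 probes, 34885 name 1 gene, 18 several and 10378 none in the platform annotation. A gene was represented by its brightest probe (mean over all arrays), and tested in a comparison if that probe was above the median of all probes in its arrays. One limma (3.58.1, R 4.3.3) fit of all 22 arrays gave each group a mean, with array weights per comparison (1.75, 0.722, 1.90, 0.918 and 0.533 in the order of the comparisons), an intensity trend and 12 residual degrees of freedom. P-values were Benjamini-Hochberg adjusted over the genes tested in a comparison, with a threshold of 0.05. The methods' t-test was run on the same values. The number of arrays limits the precision, and the median SD between replicates was 0.0766 to 0.195 (log2).

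The labels share replicate numbers between knockouts and controls. Deviations of same-numbered arrays correlated at 0.44, 0.61 and 0.52 in Nkx2.5 hearts at E11.5, which was taken as pairing, and the other comparisons hold 2 pairs each. Genes and lists were chosen with earlier results of these data known. Genes given with full values were those past the threshold, the 3 with the lowest p in each comparison, and those beyond 0.58 in log2 fold change without overlap, besides Thap11. Cs, Dlat, Pdk1, Pdk3 and the genes of the age section were added after their values were seen. Scripts were tested on simulated data. Alternatives were other scalings, background subtraction, fits of each comparison alone, equal weights, no filter, the mean of a gene's probes, a replicate block, the t-test, and each array left out.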

Additional observations from a re-analysis of the deposited data

How the results depend on the processing

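Median scaling, quantile normalization, subtraction of the lowest probe and dropping the filter left the 2 calls of the group in place. The rest of this part lists where counts moved. The genes called on the whole array, 58, 58, 1, 0 and 207 in the order of the comparisons (Nkx2.5 E9.5, Nkx2.5 E11.5, αMHC E11.5, P0 and 6 weeks), were 14, 14, 15, 2 and 0 with each comparison fitted alone. With equal weights they were 2, 124 and 0 in the first 3 and 602 at 6 weeks. Without the filter the first was 37, and averaging the probes of each gene made the third 4. By the t-test there were 584, 802, 550, 378 and 535 unadjusted, and 0, 1, 0, 0 and 1 adjusted. Leaving out 1 array gave 1 to 119, 20 to 235, 0 to 5, 0 to 10 and 9 to 751.

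In the fit with a replicate block the genes called were 489, 11, 1 and 527 in the last 4 comparisons, and with the block and each comparison fitted alone, chosen after seeing the data, 355, 29, 4 and 0. Outside Nkx2.5 hearts at E11.5 these numbers are only shared.

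Of the group, the count called lower at E11.5 under Nkx2.5::Cre (1, Mdh1) was 0 with the mean of probes, 2 with the block (Mdh1 and Mdh2), 2 with the block fitted alone (Mdh1 and Me1), 0 by the adjusted t-test, 4 by the unadjusted one, which also gave 2 higher, and 0 to 1 without 1 array. At 6 weeks the count (1, Gpt2) was 0 when fitted alone, with or without the block, 2 with equal weights (Gpt2 and Mdh1, with Me2 as 1 higher) or the block (Gpt2 and Mdh1), 0 by the adjusted t-test, and 0 to 4 without 1 array. The unadjusted t-test gave 1 higher and 1 lower at 6 weeks (Me2, and Cs in place of Gpt2), 1 lower in αMHC hearts at E11.5, and 1 higher and 1 lower at P0. Differences between comparisons had 0 calls, except with the block (1 between drivers, Mdh1, and 2 between 6 weeks and E11.5, Gpt2 and Mdh1), and 0 to 2 without 1 array for 6 weeks against P0 or E11.5.

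Signs turned in comparisons where the gene was not called. For Gpt2 this was at E9.5 without knockout 2 (range without 1 array −0.59 to 0.15). For Dld it was at P0 without knockout 2 (−0.16 to 1.04), and for Mdh1 at P0 without knockout 1 (−0.17 to 0.021). The block changed no other call of the group. Why the counts moved was not tested. Where an array was left out of a pair, the lone array was assumed to vary like the other groups.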
